A study of Homo sapiens with 16 samples.

Results

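The 6 loci described here, windows of the human genome build hg19, were chosen from the strongest gains of CTCF binding and histone acetylation in cells that have lost much of their DNA methylation. They are named after DMRT3, CBLN1, the 5′ part of EPHA6, DSEL, TUSC1 and ZYG11A, and each window is between 30 and 70 kb long. Every region that overlapped a window in any of 7 deposited tables was taken, which gave 156 of 1255311 regions: 65 at ZYG11A, 33 at DMRT3, 18 at CBLN1, 17 at TUSC1, 12 at EPHA6 and 11 at DSEL. The windows were placed by measured values of the same comparison, so the size of a gain and its direction are given as descriptions of the members, with no test, and support nothing beyond themselves.

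The study used chromatin immunoprecipitation followed by sequencing to compare HCT116, a human colorectal carcinoma line, with DKO, a line derived from it by disruption of the DNA methyltransferase genes DNMT1 and DNMT3B. Both lines were cultured without a treatment named in the labels, and each was represented by 1 library per target, so there was no replicate and no test between the lines. The 7 targets were CTCF, RAD21 and SMC1 (both subunits of cohesin), the acetylated histone H3K27Ac, and RNA polymerase II in 3 preparations: with its C-terminal repeat phosphorylated on serine 5 (Pol2Ser5), on serine 2 (Pol2Ser2), and in total (TotalRNAPol2). The titles of the TotalRNAPol2 libraries name total polymerase, while their antibody label names Pol2Ser5, and the title was followed. Median reads per region lay between 24 (Pol2Ser2) and 78 (H3K27Ac) in DKO and between 23 (Pol2Ser5) and 94 (H3K27Ac) in HCT116. All 34 regions that 6 of the tables list in chr20:31368726-31392574 had 0 reads in DKO against 22 to 431 reads in HCT116. The stretch was chosen after its values were seen, so the share with 0 reads can follow from that choice and is only described. Its position relative to DNMT3B on hg19 was not analysed.

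CTCF is a DNA-binding zinc finger protein of insulators and domain boundaries that stops the cohesin ring as it extrudes chromatin loops, and methylation of CpG sites within its motif can keep it off DNA. H3K27Ac marks active promoters and enhancers. RNA polymerase II carries serine 5 phosphorylation near the start of genes and serine 2 phosphorylation towards their ends. In cancer cells, many CpG islands that are unmethylated in normal tissue become methylated, and the genes next to them are often silent.

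The 6 genes have different roles. DMRT3 is a transcription factor with a DM domain that is known from spinal interneurons, and it lies between DMRT1 and DMRT2 in the RefSeq order of protein-coding genes. CBLN1 is a secreted protein that organises synapses in the cerebellum, and EPHA6 is a receptor tyrosine kinase for ephrins. DSEL belongs to the dermatan sulfate epimerase family, TUSC1 was named as a tumour suppressor candidate, and ZYG11A belongs to the ZYG11 family, whose member ZYG11B is a substrate receptor of a cullin ubiquitin ligase. Within RefSeq, ZYG11A lies between ZYG11B and ECHDC2. Exons, introns and transcription starts on hg19 were not analysed here.

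The RefSeq promoter table (build GRCh38.p14, 250 bases before to 50 bases after each start) held 5 of the 6 genes, all but CBLN1, with 2 starts for EPHA6. Sequences of DSEL, EPHA6 and TUSC1 are shown because these loci had the highest promoter CpG number, the most reads at a CTCF region and the strongest acetylation gain, in that order, and capitals mark each CpG, the dinucleotide that DNA methyltransferases modify. The DSEL promoter lies at chr18:67516671-67516970 on the minus strand, that of EPHA6 at chr3:96814344-96814643 on the plus strand and that of TUSC1 at chr9:25678395-25678694 on the minus strand, all on GRCh38.p14, and none was placed on the hg19 regions described below.
DSEL promoter: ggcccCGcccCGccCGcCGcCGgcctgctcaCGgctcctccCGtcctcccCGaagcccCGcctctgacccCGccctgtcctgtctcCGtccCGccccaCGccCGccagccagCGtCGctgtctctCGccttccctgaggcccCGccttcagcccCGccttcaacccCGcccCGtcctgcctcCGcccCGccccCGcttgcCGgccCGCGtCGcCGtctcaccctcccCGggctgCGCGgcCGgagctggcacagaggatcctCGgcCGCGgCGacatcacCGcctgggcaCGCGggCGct
EPHA6 promoter: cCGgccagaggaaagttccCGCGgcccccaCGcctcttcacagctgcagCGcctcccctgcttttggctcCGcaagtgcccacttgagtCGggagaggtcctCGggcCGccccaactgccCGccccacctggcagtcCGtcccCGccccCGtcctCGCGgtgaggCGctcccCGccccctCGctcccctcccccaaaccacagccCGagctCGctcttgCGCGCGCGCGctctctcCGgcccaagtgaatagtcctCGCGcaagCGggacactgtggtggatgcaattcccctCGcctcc
TUSC1 promoter: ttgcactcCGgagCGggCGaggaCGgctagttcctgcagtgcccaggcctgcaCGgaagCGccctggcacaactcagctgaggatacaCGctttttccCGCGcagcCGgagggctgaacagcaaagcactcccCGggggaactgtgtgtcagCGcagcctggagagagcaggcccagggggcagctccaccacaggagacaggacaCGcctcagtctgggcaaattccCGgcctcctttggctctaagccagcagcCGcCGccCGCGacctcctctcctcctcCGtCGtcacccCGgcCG

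The DSEL promoter held 41 CpG sites in 300 bases, more than 93.3% of the 35114 promoters in the table, whose median was 14. ZYG11A had 32, EPHA6 30 at the start shown, TUSC1 22 and DMRT3 21, so each of these 5 starts lay above the median. The other EPHA6 start had 1 CpG. The observed over expected CpG ratio was 0.99 at DSEL, 0.86 at EPHA6, 0.83 at ZYG11A, 0.66 at TUSC1 and 0.65 at DMRT3, beside a median of 0.58. The core of the CTCF motif was searched on both strands, with no other motif. It matched 10.6% of all promoters in the table and 1 of the 6 member promoters: DSEL held CCGTGAGCAGGC on the strand opposite to the printed one, from the base at position 23 of the printed sequence. A match of letters is a description and does not show that the factor binds there.

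In what follows, M is the log2 ratio of DKO over HCT116 that the authors deposited for each region, from read densities that they normalized within each table. A 2-fold difference was the threshold: regions whose M reached 1 count as higher in DKO, and those whose M was -1 or below count as higher in HCT116. Reads are those recovered for each library in a window of 1 kb (CTCF, RAD21, SMC1) or 2 kb (the other targets). The interval after an M is an exact 95% Clopper-Pearson interval from those reads and covers counting error alone: PCR can copy a molecule more than once, and each line has a single library. Each table was normalized separately, so an order of targets by M compares differences that were centred target by target.

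Across the 6 loci, 111 of 156 regions (71.2%) were higher in DKO, and each target had such a region at every locus where it had a region at all. For CTCF this was 17 of 21 regions, where 20.1% of all CTCF regions were higher in DKO. The counts were 13 of 18 for RAD21 (13.7% of all its regions), 11 of 23 for SMC1 (9.36%) and 17 of 22 for H3K27Ac (11.0%). Among the polymerase targets they were 13 of 19 for Pol2Ser5 (14.9%), 21 of 29 for Pol2Ser2 (18.6%) and 19 of 24 for TotalRNAPol2 (20.7%). At 4-fold, M of 2 or more, the counts were 13 for CTCF (4.84% of all its regions), 6 for RAD21 (1.97%), 5 for SMC1 (0.587%), 13 for H3K27Ac (3.27%), 10 for Pol2Ser5 (3.99%), 9 for Pol2Ser2 (3.93%) and 13 for TotalRNAPol2 (4.29%). Since the windows were placed on these gains, nothing is read from the distance between a count and its background.

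Only 3 of the 156 regions were higher in HCT116. They were 1 CTCF region at CBLN1 (6.33% of all CTCF regions were higher in HCT116) and 2 SMC1 regions at ZYG11A (4.67%). None was higher in HCT116 for RAD21 (8.70% of all its regions), H3K27Ac (10.4%), Pol2Ser5 (21.0%), Pol2Ser2 (10.9%) or TotalRNAPol2 (10.2%). Another 24 regions were similar, with M within 0.5 of 0. The authors called 133 of the 156 regions in DKO only, 14 in both lines and 9 in HCT116 only. All regions at EPHA6, DSEL and TUSC1 were higher in DKO, while at ZYG11A 35 of 65 were. Neighbouring regions can share reads: 80 of the 156 had another summit of the same table within 1 counting window.

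For each target and locus, the region with the highest M among those with at least 20 reads over both libraries was taken as its top region, which gave 40 top regions. Pol2Ser2 had no region at CBLN1 or EPHA6. All 40 counting intervals lay above 0, and 37 of these regions were called in DKO only. Each is the highest M of its target in a window placed on gains, so both counts follow largely from the choice and are only described. In HCT116 the density of 39 of the 40 lay below that of at least 99% of the regions of the same table that were called in both lines. The exception was RAD21 at ZYG11A, whose HCT116 density was at the 16.2 percentile of such regions.

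**Figure D1:**
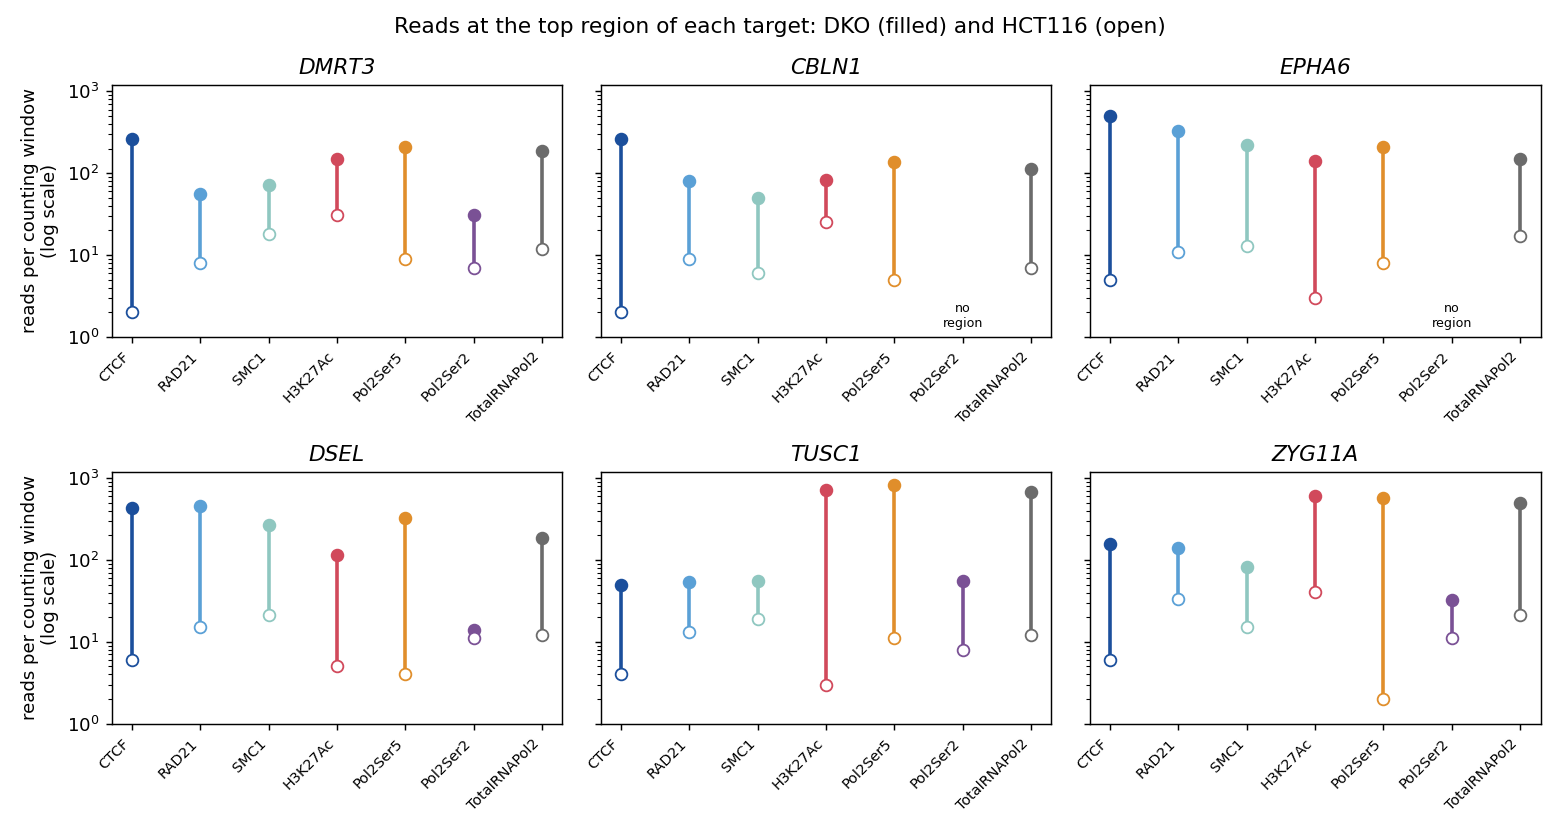
Reads per counting window (log scale) at the top region of each target, 1 panel per locus, with DKO as filled points, HCT116 as open points and a line joining the 2 libraries of a target. HCT116 has between 2 and 41 reads at every top region, and DKO is above it in all 40 pairs, least of all for Pol2Ser2 at DSEL with 14 and 11 reads. The regions were picked for high M, so this direction is only described.

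CTCF led at 4 loci. At DMRT3 the region chr9:976133-978059 had 263 DKO and 2 HCT116 reads, an M of 6.25 (4.96 to 9.88), the highest of all 171693 CTCF regions. The region chr16:49315841-49316757 at CBLN1 had 262 DKO and 2 HCT116 reads (M 6.24, 4.95 to 9.88) and ranked 3 by M. Both loci thus went from almost no CTCF reads in HCT116 to a DKO density at the 80.8 and 80.7 percentile of the regions called in both lines.

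EPHA6 and DSEL had the most CTCF reads. The EPHA6 region chr3:96531590-96534331, which is 2741 bp long, had 495 DKO and 5 HCT116 reads (M 6.24, 5.27 to 8.13), and it ranked 2 by M. The DSEL region chr18:65182886-65184077 had 432 DKO and 6 HCT116 reads (M 5.83, 4.91 to 7.50). Their DKO densities were at the 93.9 and 91.8 percentile of CTCF regions called in both lines, so CTCF at these loci was as dense in DKO as at strong shared sites.

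CTCF was weaker at ZYG11A and TUSC1. It had 156 DKO and 6 HCT116 reads at chr1:53308275-53309231 in ZYG11A (M 4.30, 3.36 to 5.98), which ranked 236. At TUSC1 the top CTCF region, chr9:25678310-25678677, had 49 DKO and 4 HCT116 reads (M 3.04, 1.88 to 5.26) and ranked 1944. The DKO density of this TUSC1 region was low for a CTCF site, at the 17.0 percentile of those called in both lines. The 3 CTCF regions of TUSC1 lay close together with M between 2.42 and 3.04. The densest of them in DKO, chr9:25677888-25678128, stood at the 28.5 percentile.

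The top cohesin gains lay close to those of CTCF. The summit of the top RAD21 region lay between 5 and 286 bp from the CTCF summit (median 38 bp over the 6 loci), and that of SMC1 between 1 and 800 bp (median 27 bp). RAD21 had its largest gains at DSEL, with 451 DKO and 15 HCT116 reads (M 4.54, 3.89 to 5.48), and at EPHA6, with 326 and 11 reads (M 4.43, 3.70 to 5.57). The same loci led for SMC1: EPHA6 had 223 and 13 reads (M 3.68, 2.98 to 4.72), rank 9 of 159358, and DSEL had 266 and 21 reads (M 3.28, 2.70 to 4.05). At both, RAD21 and SMC1 densities in DKO lay at or above the 93.7 percentile of regions called in both lines.

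At the other 4 loci the cohesin gains were smaller. At DMRT3, where CTCF had the highest M of its table, RAD21 had 55 DKO and 8 HCT116 reads (M 2.11, 1.18 to 3.54) and for SMC1 the reads were 71 and 18 (M 1.62, 0.91 to 2.51). CBLN1 had 80 and 9 reads for RAD21 (M 2.54, 1.68 to 3.85) and 50 and 6 for SMC1 (M 2.58, 1.55 to 4.28). The CTCF reads of DMRT3 and CBLN1 in DKO were nearly equal, at 263 and 262, and their RAD21 intervals overlapped. ZYG11A had 141 and 33 reads for RAD21 (M 1.75, 1.22 to 2.37) and 81 and 15 for SMC1 (M 2.05, 1.32 to 3.03), and TUSC1 had 54 and 13 (M 1.49, 0.68 to 2.57) and 55 and 19 (M 1.18, 0.45 to 2.07). The RAD21 intervals of EPHA6 and DSEL lay above those of DMRT3, TUSC1 and ZYG11A, while the CBLN1 interval overlapped that of EPHA6 and ended just below that of DSEL.

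H3K27Ac, the mark of active regulatory DNA, put the loci in another order. TUSC1 had 717 DKO and 3 HCT116 reads at chr9:25677001-25679237, an M of 7.77 (6.63 to 10.46) and the highest of all 195421 H3K27Ac regions. EPHA6 had 143 and 3 reads at chr3:96533387-96533588 (M 5.52, 4.35 to 8.22), and DSEL had 115 and 5 at chr18:65183341-65184045 (M 4.61, 3.60 to 6.51). TUSC1 was thus the locus with the least CTCF and the most acetylation in DKO, where its H3K27Ac density stood at the 96.0 percentile of regions called in both lines.

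ZYG11A combined a high acetylation level in DKO with a higher level in HCT116 than the other loci. Its top region, chr1:53308197-53310086, had 598 DKO and 41 HCT116 reads (M 4.02, 3.59 to 4.55) and was called in both lines. DMRT3 had 150 and 31 reads at chr9:976668-977695 (M 2.50, 1.97 to 3.14), and CBLN1 had 82 and 25 at chr16:49316056-49316222 (M 1.97, 1.34 to 2.71). CBLN1 thus had the smallest acetylation gain beside one of the largest CTCF gains, with a DKO density at the 21.1 percentile. The other H3K27Ac regions ranged from M of 4.45 to 5.23 at EPHA6, 4.08 at TUSC1, 1.34 to 2.19 at DMRT3, 0.73 at CBLN1 and 0.02 to 3.22 at ZYG11A.

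**Figure D2:**
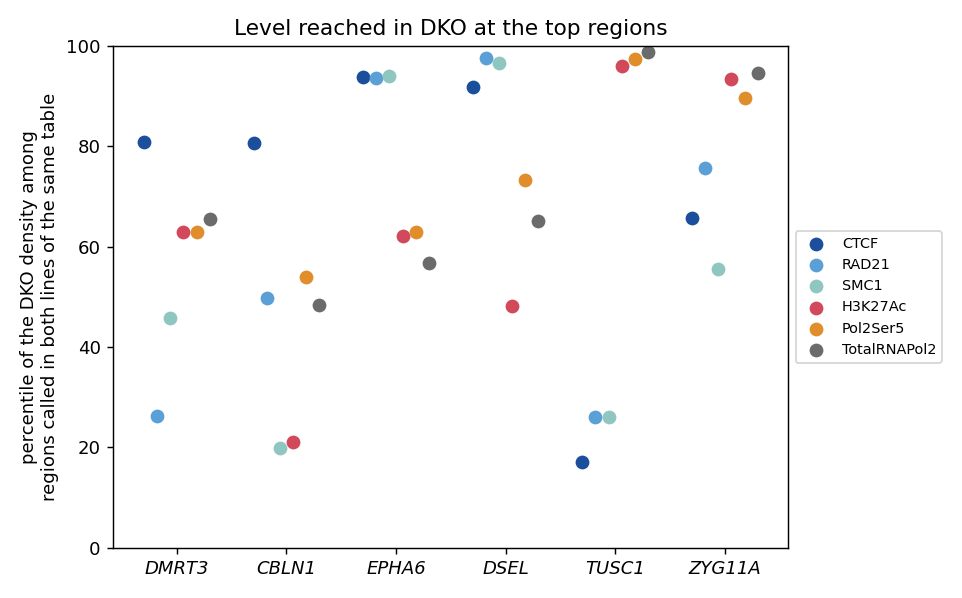
Level reached in DKO at the top region of each locus and target, as the percentile of its density among the regions of the same table that were called in both lines (Pol2Ser2 not plotted). CTCF and both cohesin subunits stand above 90 at EPHA6 and DSEL, while at TUSC1 CTCF stands at 17.0 and H3K27Ac at 96.0.

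Polymerase phosphorylated at serine 5, the form found near gene starts, gained at all 6 loci. ZYG11A had 567 DKO and 2 HCT116 reads (M 6.82, 5.55 to 10.45), which ranked 2 of 149589 Pol2Ser5 regions. TUSC1 had the most, 835 DKO and 11 HCT116 reads (M 5.34, 4.61 to 6.47), and DSEL had 324 and 4 (M 5.28, 4.23 to 7.48). The remaining loci were alike, with M of 3.82 at CBLN1, 3.79 at EPHA6 and 3.65 at DMRT3, from 139, 208 and 210 reads in DKO and 5, 8 and 9 in HCT116, and their intervals overlapped.

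TotalRNAPol2, whose antibody label is the same as that of Pol2Ser5, gave M between 2.93 at EPHA6 and 5.29 at TUSC1. TUSC1 had 669 DKO and 12 HCT116 reads and ZYG11A had 499 and 21, and these loci stood at the 98.7 and 94.6 percentile in DKO. DSEL, DMRT3, CBLN1 and EPHA6 had 184, 187, 112 and 149 reads in DKO and 12, 12, 7 and 17 in HCT116, with M of 3.72, 3.74, 3.94 and 2.93. EPHA6 had the smallest TotalRNAPol2 gain although its CTCF region had more reads in DKO than that of any other locus.

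Pol2Ser2, the elongating form, had few reads and was higher in DKO at the 4 loci where it had a region, or at 3 with a constant in place of the line that the authors fitted. TUSC1 had 56 DKO and 8 HCT116 reads (M 3.45, 2.52 to 4.88), DMRT3 31 and 7 (M 2.96, 1.89 to 4.53) and ZYG11A 32 and 11 (M 2.31, 1.37 to 3.53). DSEL had only 14 and 11 reads (M 1.36, 0.14 to 2.67), in a region 11335 bp from its CTCF summit, and this is the locus lost with constant centring (M 0.69). The intervals of DMRT3, TUSC1 and ZYG11A overlapped at these depths, and the differences between these loci were not tested.

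Ordered by M of the top regions, the targets fell in a different sequence at each locus. At DMRT3 the order was CTCF, TotalRNAPol2, Pol2Ser5, Pol2Ser2, H3K27Ac, RAD21, SMC1, and at CBLN1 it was CTCF, TotalRNAPol2, Pol2Ser5, SMC1, RAD21, H3K27Ac. EPHA6 had CTCF, H3K27Ac, RAD21, Pol2Ser5, SMC1, TotalRNAPol2, and DSEL had CTCF, Pol2Ser5, H3K27Ac, RAD21, TotalRNAPol2, SMC1, Pol2Ser2. The leading target was thus CTCF at these 4 loci, H3K27Ac at TUSC1 and Pol2Ser5 at ZYG11A. At TUSC1 the order was H3K27Ac, Pol2Ser5, TotalRNAPol2, Pol2Ser2, CTCF, RAD21, SMC1, and at ZYG11A it was Pol2Ser5, CTCF, TotalRNAPol2, H3K27Ac, Pol2Ser2, SMC1, RAD21.

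Most neighbours in these orders had overlapping counting intervals. An overlap does not show that 2 values are equal, and the differences between neighbours were not tested. Of the 34 pairs of neighbours, 30 had overlapping intervals and 4 did not: CTCF over TotalRNAPol2 at DMRT3, H3K27Ac over Pol2Ser5 at TUSC1, H3K27Ac over Pol2Ser2 at ZYG11A and SMC1 over Pol2Ser2 at DSEL. The interval of the leader thus lay clear of that of the next target only at DMRT3 and TUSC1. When each M was replaced by its percentile within its own table, the same target led at each of the 6 loci. The loci were chosen for the strongest gains of CTCF and acetylation. A lead of CTCF or H3K27Ac, by M or by percentile, thus follows from that choice and is only described. The lower places changed: SMC1 moved from place 4 to 2 at CBLN1 and from 5 to 2 at EPHA6, and H3K27Ac from 5 to 7 at DMRT3.

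**Figure D3:**
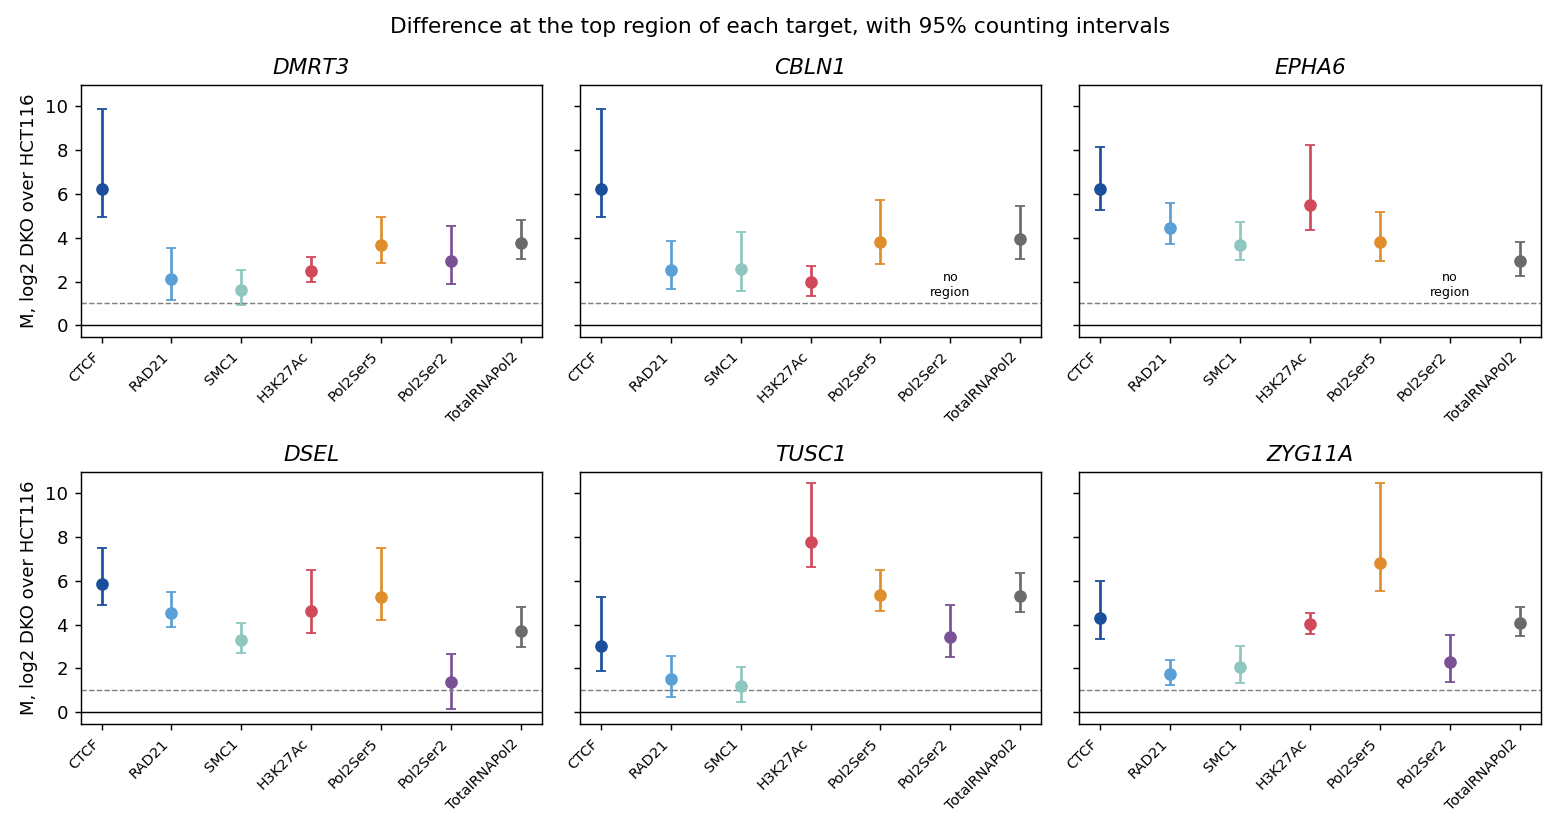
M of the top region of each target (log2 DKO over HCT116, points) with its 95% counting interval (bars), 1 panel per locus; the dashed line marks a 2-fold difference and the solid line no difference. All 40 intervals lie above 0, which follows largely from taking the highest M in windows placed on gains. CTCF stands highest at DMRT3, CBLN1, EPHA6 and DSEL, H3K27Ac at TUSC1 and Pol2Ser5 at ZYG11A.

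The gains were centred on 1 place per locus. At the top CTCF region of all 6 loci, an overlapping region of RAD21, SMC1, H3K27Ac, Pol2Ser5 and TotalRNAPol2 was at least 2-fold higher in DKO, and one of Pol2Ser2 was at DMRT3, TUSC1 and ZYG11A. The summits of the polymerase and acetylation regions lay farther off than those of cohesin, with medians of 335 bp for H3K27Ac, 482 bp for Pol2Ser5 and 571 bp for TotalRNAPol2. The farthest were 1324 bp for H3K27Ac and 1524 bp for TotalRNAPol2, both at EPHA6.

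Such places with all 5 targets were a minority among strong CTCF gains. Of the 444 CTCF regions with M of 4 or more, a 16-fold gain, which include 5 of the 6 top regions here, 101 (22.7%) had RAD21, SMC1, H3K27Ac, Pol2Ser5 and TotalRNAPol2 higher in DKO together. Among the 444, 85.8% had a RAD21 region higher in DKO, 78.2% SMC1, 60.6% TotalRNAPol2, 48.2% Pol2Ser5, 34.7% H3K27Ac and 29.3% Pol2Ser2. Of 4720 CTCF regions, every 10th of those called in both lines with M within 0.5 of 0, 0 had all 5. The members were picked for gains of both CTCF and acetylation, so their own share is set by that choice.

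The regions were also divided by their distance from the summit of the top CTCF region, which was itself picked for its M. The near group holds 39 of the 40 top regions, so a higher near share is fixed by that choice and is only described. Within 2 kb of the summit, 69 of 73 regions were higher in DKO, with a median M of 2.70, and farther away 42 of 83 were, with a median of 1.03. CTCF itself fell from 11 of 11 regions (median M 3.04) to 6 of 10 (1.32), H3K27Ac from 12 of 13 (4.02) to 5 of 9 (1.14) and SMC1 from 8 of 11 (1.62) to 3 of 12 (0.17). For RAD21 the change was from 10 of 10 (1.68) to 3 of 8 (0.72), and for Pol2Ser2 from 8 of 8 (2.46) to 13 of 21 (1.38).

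Reach was measured as the unbroken run of consecutive regions with M of 1 or more around the top region, with gaps of at most 10 kb. Over the loci, the median reach was 3.22 kb for CTCF (1.18 to 12.6 kb), 1.23 kb for RAD21 (0.390 to 12.3 kb), 1.90 kb for SMC1 (0.252 to 5.19 kb) and 1.63 kb for H3K27Ac (0.166 to 5.46 kb). It was 2.36 kb for Pol2Ser5 (1.45 to 10.5 kb), 4.20 kb for Pol2Ser2 over 4 loci (0.266 to 9.57 kb) and 2.78 kb for TotalRNAPol2 (1.29 to 7.27 kb). The median runs over the whole tables were 0.655 kb for CTCF, 0.416 kb for RAD21, 0.435 kb for SMC1, 1.30 kb for H3K27Ac, 0.875 kb for Pol2Ser5, 0.336 kb for Pol2Ser2 and 1.08 kb for TotalRNAPol2. Each median was thus above that of its table, by the smallest factor for H3K27Ac, the target with the largest single M of these loci. At CBLN1 the acetylated run covered 0.166 kb, the length of 1 called region. Reads were counted in windows of 1 or 2 kb, so a shorter reach rests on the edges of called regions. Top regions were picked for high M in windows placed on gains. Runs longer than those of the whole table, here and below, can follow from that choice and are only described.

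CTCF reached farthest at DMRT3. Its run there held 5 regions over 12.6 kb, from 7.57 kb on the lower side of the summit to 4.98 kb on the higher side, longer than 98.5% of CTCF runs. Beside the top region it held chr9:969446-970264 with 109 DKO and 23 HCT116 reads (M 2.06), chr9:975098-975517 with 44 and 8 (M 2.07) and chr9:981410-981999 with 120 and 10 (M 3.28). With 4-fold as the threshold the run was 6.90 kb. RAD21 spanned only 0.390 kb at DMRT3, and SMC1 5.19 kb. Pol2Ser5, Pol2Ser2 and TotalRNAPol2 ran between 5.40 and 5.47 kb to the lower side, for 6.09, 5.83 and 6.17 kb in all, though the Pol2Ser2 run became 18.8 kb with gaps of 20 kb and 0.754 kb at 4-fold.

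The same window held CTCF sites that hardly differed between the lines. About 22 kb from the DMRT3 summit, chr9:997024-998687 had 293 DKO and 253 HCT116 reads (M 0.29, 0.05 to 0.54), chr9:998885-999988 had 245 and 198 (M 0.36) and chr9:999999-1000687 had 74 and 52 (M 0.39). RAD21 and SMC1 regions there were also called in both lines, with M between 0.23 and 0.31. The densest CTCF site of the window in DKO was thus the shared one, and choosing regions by DKO density instead of M gave 0.29 for CTCF, 0.29 for RAD21 and 0.30 for SMC1 at DMRT3. H3K27Ac at the shared site rose from 17 reads in HCT116 to 35 in DKO (M 1.34, 0.51 to 2.31).

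At DSEL the widest run was that of RAD21, 12.3 kb, longer than 99.6% of RAD21 runs, and it shrank to 4.18 kb with gaps of 5 kb. CTCF and SMC1 spanned 3.70 and 3.54 kb there, through a side region about 2.7 kb from the summit with 63 DKO and 8 HCT116 reads of CTCF (M 2.60), and the SMC1 run was 0.953 kb at 4-fold. H3K27Ac covered 0.704 kb, Pol2Ser5 1.46 kb and TotalRNAPol2 1.29 kb. The CTCF and SMC1 runs extended 2.97 and 2.87 kb to the lower side of the summit and 0.726 and 0.665 kb to the higher side, where H3K27Ac ended at 0.694 kb, while the Pol2Ser5 and TotalRNAPol2 runs began close to the CTCF summit and went 1.48 and 1.23 kb to the higher side.

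EPHA6 was compact and one-sided. All 6 targets with a region there had runs between 1.54 kb (Pol2Ser5) and 2.74 kb (CTCF), with at most 0.672 kb on the lower side of the CTCF summit and 1.53 to 2.17 kb on the higher side. The nearest CTCF regions outside the window, 10.8 and 21.8 kb from its edges, had M of 0.45 and 0.19. Cohesin was higher in DKO at some of its nearest outside regions: RAD21 had 72 DKO and 12 HCT116 reads 21.9 kb away on the higher side (M 2.02), and SMC1 had 61 and 12 reads 89.6 kb away on the lower side (M 1.95). At CBLN1 the runs lay between 0.166 kb (H3K27Ac) and 2.68 kb (TotalRNAPol2), and at 4-fold those of CTCF, RAD21 and TotalRNAPol2 shortened from 1.70, 1.41 and 2.68 kb to 0.916, 0.285 and 1.23 kb. Its single CTCF region higher in HCT116, chr16:49321501-49321710, rested on 13 DKO and 23 HCT116 reads (M -1.04, -2.19 to -0.05).

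Acetylation and polymerase reached farther than CTCF at TUSC1. H3K27Ac spanned 2.74 kb, Pol2Ser5 3.18 kb, Pol2Ser2 2.58 kb and TotalRNAPol2 2.89 kb, against 1.18 kb for CTCF, 1.04 kb for RAD21 and 1.30 kb for SMC1. The former were counted in windows of 2 kb and the latter in windows of 1 kb, and the part of this in the reach was not tested. The Pol2Ser5 run became 14.7 kb with gaps of 20 kb, through 1 region on the lower side.

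At ZYG11A the targets reached to different sides. CTCF (7.23 kb) and TotalRNAPol2 (7.27 kb) ran about 7 kb to the higher side through 1 distant region each, and with gaps of 5 kb they shortened to 1.44 and 1.54 kb, as they did at 4-fold. H3K27Ac ran 3.84 kb to the lower side through 4 further regions with M between 2.17 and 3.22, for 5.46 kb in all. Pol2Ser5 (10.5 kb) and Pol2Ser2 (9.57 kb) extended about 9 kb to the lower side and depended on the gap: 4.26 kb and 0.832 kb with 5 kb, and 26.8 kb for Pol2Ser2 with 20 kb. At 4-fold, Pol2Ser5 spanned 4.26 kb and Pol2Ser2 0.549 kb. Cohesin stayed under 1 kb (0.988 kb for RAD21, 0.881 kb for SMC1), though the RAD21 run was 14.5 kb with gaps of 20 kb.

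Further gains of Pol2Ser2 and TotalRNAPol2 lay past the ZYG11A summit. For TotalRNAPol2 they were smaller than at the summit (M up to 1.79 against 4.05). Those of Pol2Ser2 were not: M reached 2.36 (12 DKO and 5 HCT116 reads, under the minimum of 20) and 2.26 (17 and 7), against 2.31 at the top region. More than 2 kb to the higher side, 9 of 15 Pol2Ser2 regions and 5 of 5 TotalRNAPol2 regions were higher in DKO, with medians of 1.38 and 1.60, while 0 of 6 Pol2Ser5 regions (median 0.12) and 1 of 4 H3K27Ac regions (0.71) were. With constant centring, an alternative chosen after seeing the data, the counts fell to 5 of 15 for Pol2Ser2 and 3 of 5 for TotalRNAPol2, with medians of 0.74 and 1.02, and stayed at 0 of 6 for Pol2Ser5. The gains ran to the end of the window: the Pol2Ser2 region chr1:53364125-53365338, 55.90 kb from the summit, had 56 DKO and 26 HCT116 reads (M 1.60, 0.94 to 2.36). The TotalRNAPol2 region chr1:53364489-53365366 had 96 and 26 reads (M 1.72, 1.12 to 2.44). A Pol2Ser5 region that overlapped both, chr1:53365176-53365519, had 41 and 11 reads (M 1.10, 0.20 to 2.30). It began 0.176 kb outside the window, so the count of 0 of 6 for Pol2Ser5 depends on the window edge. Pol2Ser2 is the form that travels through gene bodies, and its regions between 17.68 and 47.86 kb past the summit rested on 5 to 25 reads in DKO. Which gene the regions past the summit lie in was not analysed, and ECHDC2 follows ZYG11A on this side in the RefSeq order. The 2 SMC1 regions higher in HCT116 lay -11.74 and 45.76 kb from the summit, with 12 and 10 reads in DKO and 24 and 21 in HCT116.

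**Figure D4:**
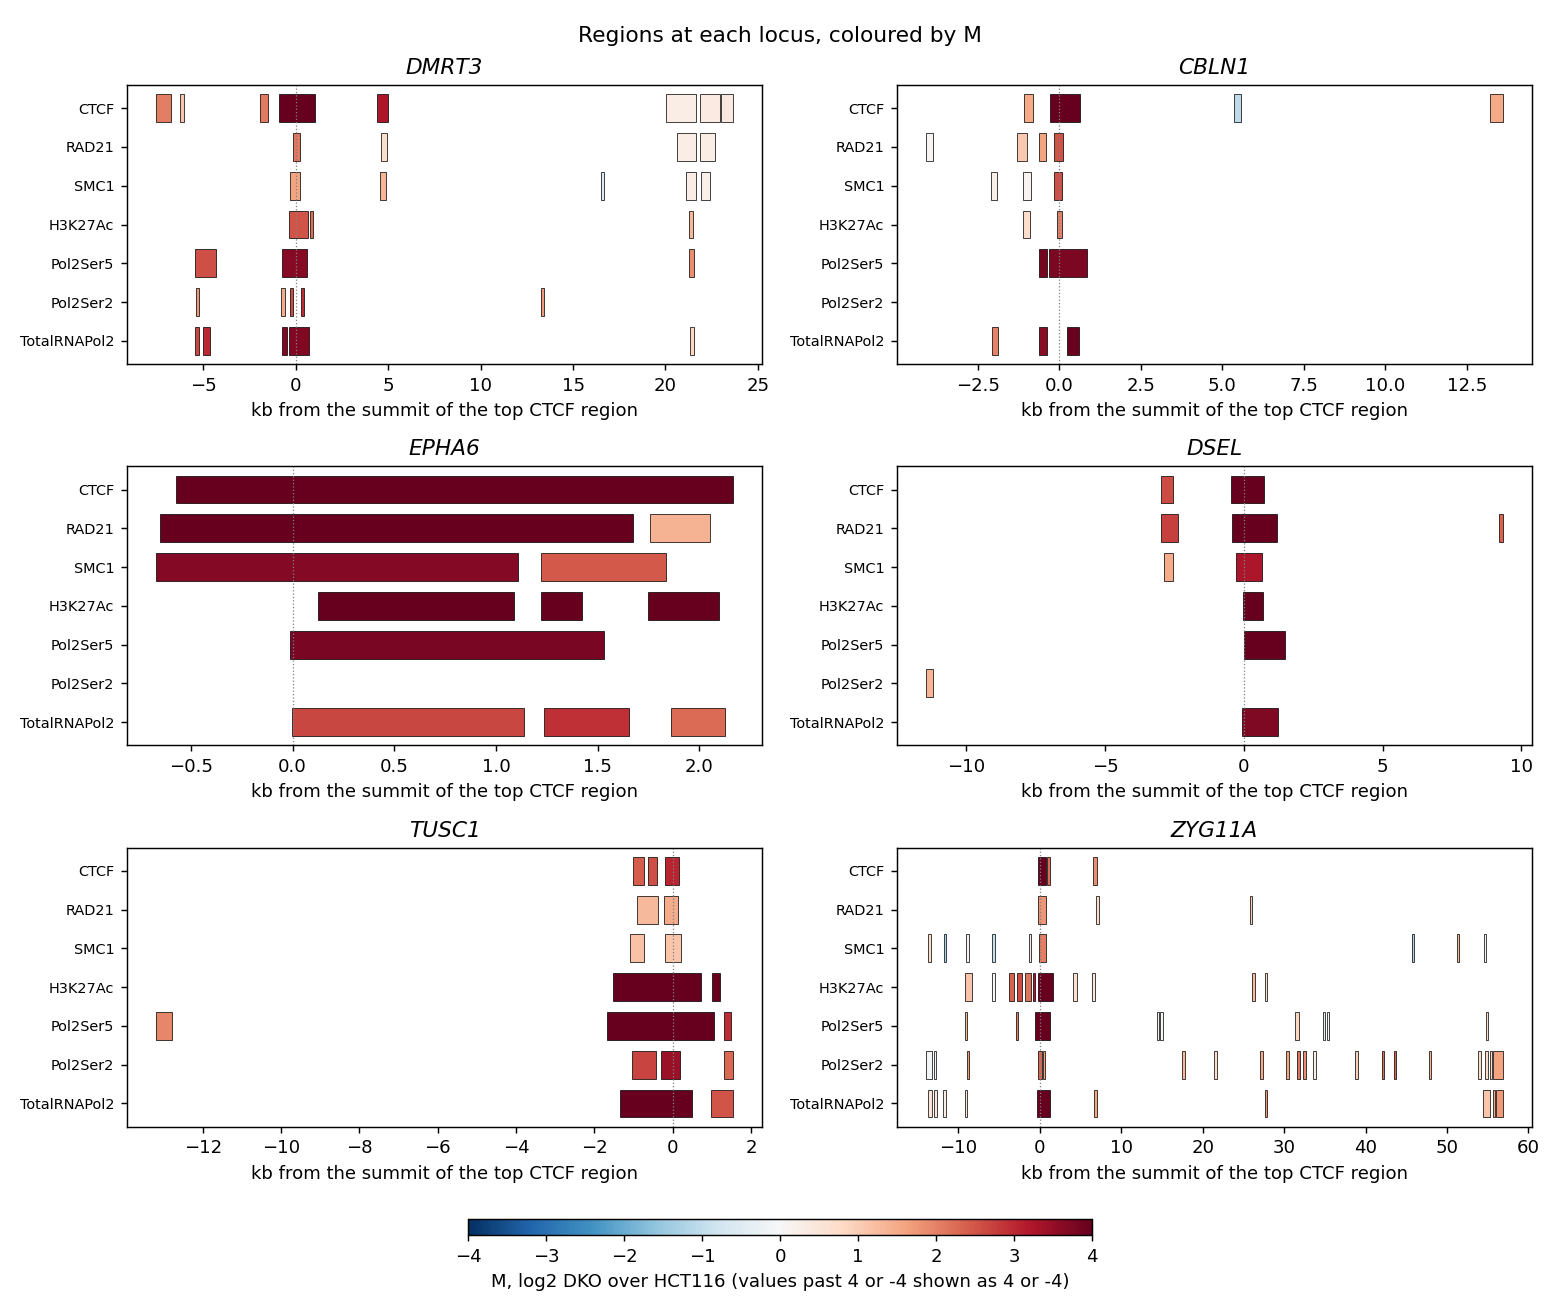
Regions of each target at each locus, drawn to scale against distance in kb from the summit of the top CTCF region (dotted line) and coloured by M (log2 DKO over HCT116, values past 4 or -4 shown as 4 or -4). Dark red regions sit at the summit in every panel, and the pale CTCF and cohesin regions about 22 kb away at DMRT3 have small M. The scattered Pol2Ser2 regions up to 56 kb away at ZYG11A have M of up to 2.36.

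The flanks of the windows were described in the same way. The shares of regions higher in DKO were taken within 1 Mb on each side of the 6 loci, over 3316 regions. They were 27.2% for CTCF, 18.1% for RAD21, 15.1% for SMC1, 8.98% for H3K27Ac, 13.3% for Pol2Ser5, 22.2% for Pol2Ser2 and 21.2% for TotalRNAPol2. For H3K27Ac and Pol2Ser5 these shares were below those of the whole tables (11.0% and 14.9%), but within 250 kb they were above them, at 16.7% and 30.0%. ZYG11A gave 306 of the 557 H3K27Ac regions within 1 Mb, with 4.25% higher in DKO, and the share was 9.05% at CBLN1 and between 37.5% and 100% at the other 4 loci, which had 1 to 32 regions each. At DSEL, 24 of the 31 flanking CTCF regions were higher in DKO, and the 8 called in both lines had a median M of 1.25, with 1.22 for 3 such RAD21 regions. At the other loci these medians lay between -0.04 and 0.22 for CTCF, and between 0.02 and 0.86 for RAD21, the latter at TUSC1, where the top RAD21 region had M of 1.49. SMC1 had a median of 0.76 over 4 such regions at TUSC1, beside a top M of 1.18, and of 0.52 over 4 at DSEL. At DMRT3 the medians were 1.21 for Pol2Ser2 and 1.14 for TotalRNAPol2, over 4 regions each, and 0.77 for Pol2Ser5 over 6. For these targets and loci the top M thus lay above a raised surrounding level, taken from 3 to 8 regions, whose part in the gain was not tested. Other targets at these loci were mixed. Over all regions within 1 Mb, H3K27Ac had a median M of 6.02 over 3 regions at DSEL and 0.69 over 32 at DMRT3. CTCF had a median of 0.59 over 18 regions at TUSC1. Pol2Ser5 had a median M of -1.42 at DSEL, with 6 of 10 higher in HCT116, and -1.65 at TUSC1, with 7 of 8. At DMRT3 the 44 CTCF regions called in both lines had a median of -0.04.

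The nearest regions just outside the windows were mixed, as the choice of the windows fixes only what lies inside. Of 12 such regions per target, 1 on each side of each window and up to 2628 kb away, 4 were higher in DKO for CTCF (median M 0.36), 6 for RAD21 (1.01), 4 for SMC1 (0.20), 4 for H3K27Ac (0.65), 3 for Pol2Ser5 (-1.71), 3 for Pol2Ser2 (0.55) and 6 for TotalRNAPol2 (0.97). Pol2Ser5 had 7 of 12 higher in HCT116. For CTCF the 2 nearest at DSEL had M of 2.60 and 2.54, those at DMRT3 -0.36 and -0.25, and those at ZYG11A 0.28 and -0.80.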

How the data were processed

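Chromatin immunoprecipitation of 7 targets in HCT116 and DKO cells was analysed from 1 deposited table per target, which pairs 1 library of each line. The series holds 16 samples, of which the 14 immunoprecipitated libraries were used and the 2 inputs were not. Reads were aligned with BWA to hg19, and MACS2 is named for all targets but TotalRNAPol2, per the submitters' processing notes; no source used here names their versions. Each row gives a region and the line in which it was called. M and A are log2 values (ratio and mean density) deposited by the authors, and the densities are a signal normalized by the authors, per the file headers. The p-value per region is that of the authors' deposited table and was used only as 1 filter, at 1e-05.

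Reads were recovered from M and A with Python 3.11.15, numpy 2.4.6, pandas 2.3.3 and scipy 1.17.1: M was the log2 ratio of whole counts, each with 1 read added, less a line fitted to A in each table, and 100% of values came out whole within 0.05. That line rose by 0.33 per unit of A for Pol2Ser2 and 0.32 for TotalRNAPol2, against -0.13 to 0.06 elsewhere. Replacing it by a constant shifted the median M of all regions by -0.24 and -0.29 in these 2 tables and by at most 0.08 in the others. Recentring on all regions shifted M by -0.27 to 0.05. The centring makes shared regions average near 0. On simulated tables of 42924 regions, all with the spread of CTCF levels, 100% of reads were recovered. Intervals held the true difference for 94.5% to 96.0% of 200 changed regions. A share near 95% follows from how an exact 95% interval is built and is only described. Coverage at the levels of the other targets was not tested, nor was it tested separately for the largest M or the fewest reads. Intervals are computed from the reads without the added read.

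Samples were grouped by line and target from their titles. Members, lists and rules were chosen with earlier results of these data known. All 6 genes are named, each with its top regions, and for CTCF and H3K27Ac the regions of highest and lowest M. Other places named were chosen after their values were seen. With 1 library per line and target no test was made. Paralogs and cell type markers listed for the study were not analysed here, since gene positions on hg19 were not used. RefSeq tables of GRCh38.p14 gave gene order and promoters. Alternatives changed the threshold, centring, density filter, p filter, gap, window rule and flank, and restricted the counts to regions called in both lines.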

Additional observations from a re-analysis of the deposited data

How the results depend on the processing

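No paired analysis was possible because each line has 1 library per target. With a single library, no replicate could be left out, and depth limits the precision: 18 of the 40 top regions had at most 8 reads in HCT116, so their M has a wide upper bound. No M of a top region changed sign in any alternative, while the flank shares of H3K27Ac and Pol2Ser5 turned from below to above those of the whole tables with flanks of 250 kb. Of the counts, orders, median reaches and flank shares, 123 values stayed within their limits and 40 moved, and of the values of single regions and runs 257 stayed and 24 moved, the latter given beside the results. Runs whose top region had M under 2 were lost at 4-fold and are in neither count. They were RAD21 at TUSC1 and ZYG11A, SMC1 at DMRT3 and TUSC1, H3K27Ac at CBLN1 and Pol2Ser2 at DSEL. Under another centring or with no minimum of reads each top region's M stayed within its counting interval, but Pol2Ser2 at DSEL fell under 2-fold with constant centring (1.36 to 0.69).

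Restricted to regions called in both lines, the counts higher in DKO were 0 for CTCF, 1 for RAD21, 0 for SMC1, 2 for H3K27Ac, 1 for Pol2Ser5, 0 for Pol2Ser2 and 0 for TotalRNAPol2, since only 14 of the 156 regions were so called. With only regions of at least median density they were 10 for CTCF, 5 for SMC1, 8 for Pol2Ser5 and 9 for Pol2Ser2. At 4-fold they were 6 for RAD21 (1.97% of all its regions), 5 for SMC1 (0.587%) and 9 for Pol2Ser2 (3.93%). With the p of the authors' deposited table below 1e-05 they were 7 for RAD21, 6 for SMC1, 8 for Pol2Ser5 and 2 for Pol2Ser2. The shares of all regions under the density filter, the p filter or a call in both lines were not computed, so these counts are only described.

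Regions higher in HCT116 became 0 for CTCF (from 1) at 4-fold, with constant centring, at or above the median density, with the p filter and in both lines, and 0 for SMC1 (from 2) in the same settings except constant centring. The median reach at 4-fold was 2.09 kb for CTCF and 1.84 kb for TotalRNAPol2. Without the loci whose run was lost, it was 0.917 kb for SMC1 and 0.754 kb for Pol2Ser2. With gaps of 20 kb it was 2.06 kb for RAD21, 3.82 kb for Pol2Ser5 and 10.7 kb for Pol2Ser2, and with gaps of 5 kb it was 1.71 kb for Pol2Ser2. In flanks of 250 kb the share higher in DKO was 25.3% for SMC1, 16.7% for H3K27Ac, 30.0% for Pol2Ser5, 45.7% for Pol2Ser2 and 42.6% for TotalRNAPol2. For the gaps and flanks the cause was not tested.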

Other observations

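Strong gains also lay outside the windows, at places chosen after their values were seen. On the higher side of DMRT3, towards DMRT2 in the RefSeq order of genes, the CTCF region chr9:1041820-1043715 had 327 DKO and 6 HCT116 reads (M 5.41, 4.49 to 7.08) and ranked 32 of all CTCF regions. It had RAD21 (M 1.79), SMC1 (1.62), Pol2Ser5 (1.58), Pol2Ser2 (2.07) and TotalRNAPol2 (2.34) regions higher in DKO, and no H3K27Ac region overlapped it. About 9 kb farther, chr9:1051040-1053238 had 261 and 11 CTCF reads (M 4.33, 3.58 to 5.47), with all 6 other targets higher in DKO and M between 1.47 (Pol2Ser2) and 2.52 (Pol2Ser5).

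Near DSEL, 74.1 kb from the window on the lower side, an H3K27Ac region at chr18:65084719-65085897 had 233 DKO and 2 HCT116 reads (M 6.63, 5.34 to 10.26), rank 9 of its table and above the gain of the DSEL window itself (M 4.61). Beside it, chr18:65086006-65086316 had 205 and 3 reads (M 6.02). Pol2Ser5 overlapped both, with M of 3.07 and 3.55, and TotalRNAPol2 overlapped the larger one with M of 2.18, while no CTCF region did. On the lower side of EPHA6, 89.6 kb from the window, a CTCF region at chr3:96419381-96420429 had 134 and 10 reads (M 3.45, 2.65 to 4.67), with RAD21 at 3.25 and SMC1 at 2.30 and no overlapping H3K27Ac region.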
